A study of Mus musculus with 8 samples.

Results

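The 10 enzymes that turn cholesterol into conjugated bile acids were followed in mouse liver RNA sequencing. They are Cyp7a1, Cyp8b1, Cyp27a1, Cyp7b1, Cyp39a1, Hsd3b7, Akr1d1, Acox2, Slc27a5 and Baat, taken by gene symbol from a count table of 24940 genes, and all 10 were found there and passed the filter on low counts. FXRKO livers (4 samples) carried a whole-body homozygous loss of Fxr (gene Nr1h4), the nuclear receptor for bile acids, with floxed and intact Bcl6, and BCL6LKOFXRKO livers (4 samples) carried the same loss of Fxr, the same floxed Bcl6 and in addition Alb-Cre, whose albumin promoter restricts recombination to cells of the hepatocyte lineage. Both groups were male C57BL/6 mice, and no liver with functional Fxr was compared here. Each difference below is thus one between livers without and with the transcriptional repressor BCL6 in hepatocytes, all of them lacking Fxr. The groups also differ in the presence of Alb-Cre, and the study reports cholestatic liver damage in BCL6LKOFXRKO mice compared with FXRKO mice. The parts of BCL6 loss, Cre and liver damage cannot be told apart here. Age, litter and hour of collection were not given in the sources used here, and the methods name ad libitum feeding or a short fast as the usual state without saying which applied to these mice. The labels do not say that the samples came from separate animals or cultures, so p-values measure the spread between these samples.

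Bile acids are made in hepatocytes by a classical pathway, which CYP7A1 opens in the endoplasmic reticulum, and by an alternative pathway, in which the mitochondrial enzyme CYP27A1 first oxidises the side chain of cholesterol and CYP7B1 then hydroxylates the ring. The routes meet at HSD3B7 and AKR1D1, which reshape the sterol ring, while CYP8B1 adds the hydroxyl group that sets cholic acid apart from chenodeoxycholic acid and its muricholic derivatives in mice. Peroxisomal enzymes, ACOX2 among them, then shorten the side chain, and SLC27A5 and BAAT couple the product to coenzyme A and to taurine or glycine. In the usual feedback loop, bile acids bind FXR, which induces the co-repressor SHP (gene Nr0b2) in liver and the hormone FGF15 in ileum, and both restrain Cyp7a1.

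Of the 10 enzymes, 6 were lower in BCL6LKOFXRKO livers, 0 were higher and 4 were not called, where a call is a Benjamini-Hochberg adjusted p under 0.05 over all 12340 genes tested by edgeR's quasi-likelihood fit. Across all those genes, 13.5% were called lower and 16.2% higher. The genes called were Cyp7b1, Cyp39a1, Baat, Hsd3b7, Slc27a5 and Acox2, and the median log2 fold change of the 10 was -0.49, against 0.01 for all tested genes. In 6 enzymes the highest BCL6LKOFXRKO liver lay below the lowest FXRKO liver, as it did for 15.2% of all tested genes, and in 0 enzymes did all 4 BCL6LKOFXRKO livers lie above all FXRKO livers, which held for 16.1% of tested genes. The enzymes without overlap were those called except Acox2, and Cyp27a1 in its place. Libraries held 7586241 to 11839503 counts each, and levels are given as CPM (counts scaled to a library of fixed size) adjusted by TMM, a library scaling that assumes most genes do not differ.

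Promoter sequence bears on these genes because BCL6 and STAT factors bind palindromes of the form TTCNNNGAA, and nuclear receptors such as LRH-1 bind AGGTCA or the longer CAAGGTCA. RefSeq promoter entries (GRCm38.p6, the build of the counts) were matched for 5 of the 10 enzymes, Cyp8b1, Cyp27a1, Hsd3b7, Akr1d1 and Acox2, and the 250 bases before each start were searched on both strands. Cyp7a1, Cyp7b1, Cyp39a1, Slc27a5 and Baat had no entry. Of all 32817 windows of this length, 7.01% held TTCNNNGAA, 14% held AGGTCA and 1.33% held CAAGGTCA, every match to CAAGGTCA being a match to AGGTCA too. Hsd3b7, which was called lower, held TTCCTGGAA 21 to 13 bases before its start, and Akr1d1, which was not called, held AGGTCA on the reverse strand at 232 to 227 and at 210 to 205 bases before its start. The windows of Cyp8b1, Cyp27a1 and Acox2 (which has 2 starts) held none of the 3 motifs. Nr0b2, a target of FXR in liver whose protein SHP restrains Cyp7a1, held TTCAATGAA 91 to 83 bases before its start. These 3 windows are shown 5′ to 3′ along the gene because they hold the matches, which stand in capitals. They lie on the plus strand at chr7:127800359-127800608 (Hsd3b7), chr6:37529923-37530172 (Akr1d1) and chr4:133553126-133553375 (Nr0b2). A match is a string of letters and no measurement of binding.
Hsd3b7: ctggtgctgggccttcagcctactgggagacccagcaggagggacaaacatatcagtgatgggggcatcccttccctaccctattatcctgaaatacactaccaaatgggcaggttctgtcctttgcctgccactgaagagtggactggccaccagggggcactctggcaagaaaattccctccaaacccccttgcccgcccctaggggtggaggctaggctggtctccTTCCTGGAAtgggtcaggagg
Akr1d1: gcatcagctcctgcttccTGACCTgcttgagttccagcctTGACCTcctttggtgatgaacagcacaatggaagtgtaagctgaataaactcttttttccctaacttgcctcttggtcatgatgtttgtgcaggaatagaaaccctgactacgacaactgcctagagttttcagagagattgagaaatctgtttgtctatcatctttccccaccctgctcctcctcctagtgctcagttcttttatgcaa
Nr0b2: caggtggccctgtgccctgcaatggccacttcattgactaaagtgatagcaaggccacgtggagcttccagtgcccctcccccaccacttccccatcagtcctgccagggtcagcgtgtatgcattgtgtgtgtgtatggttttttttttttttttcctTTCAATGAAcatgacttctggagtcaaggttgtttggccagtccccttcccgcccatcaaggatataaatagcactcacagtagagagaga

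**Figure D1:**
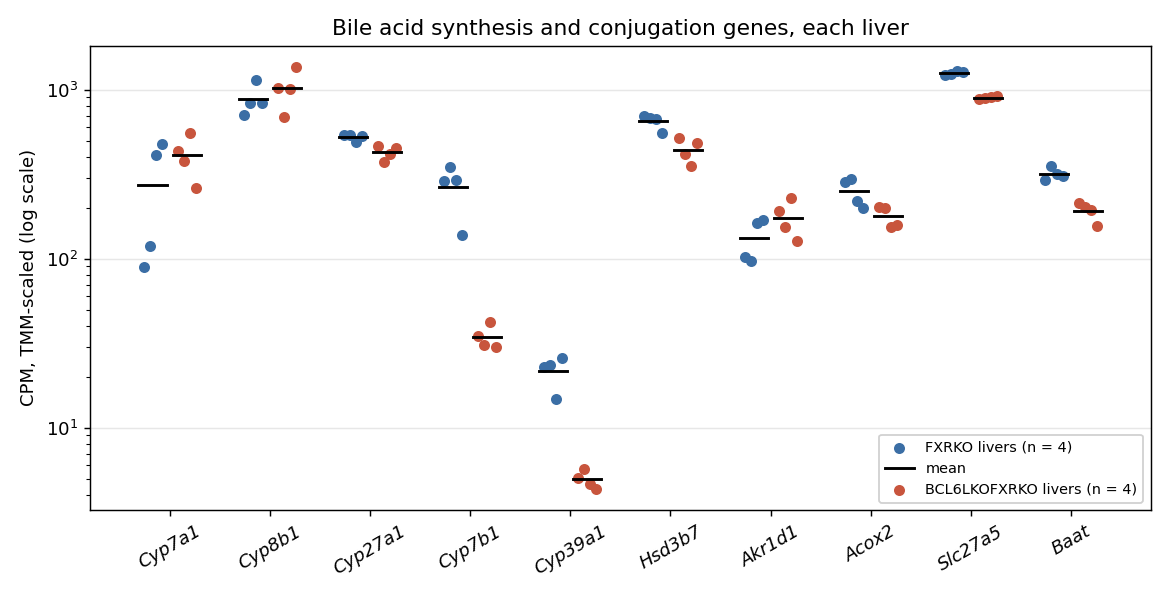
Level of each of the 10 enzymes in each liver, as TMM-scaled CPM on a log axis, with FXRKO livers in blue and BCL6LKOFXRKO livers in red (4 each, replicates 1 to 4 from left to right) and the group mean as a black line. Cyp7b1 and Cyp39a1 show the widest gaps between groups, and the 4 FXRKO livers spread from 89.7 to 478 CPM for Cyp7a1.

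Cyp7a1, the rate-limiting enzyme of the classical pathway (NM_007824, chr4:6265612-6275631, minus strand), was not called, and its level differed widely among livers of the same genotype. FXRKO livers 1 to 4 held 89.7, 119, 412 and 478 CPM, with a mean of 274.5 ± 199 (SD, n = 4). BCL6LKOFXRKO livers 1 to 4 held 434, 380, 558 and 262 CPM, with a mean of 408.5 ± 123 (SD, n = 4). FXRKO livers 1 and 2 lay below every BCL6LKOFXRKO liver, while FXRKO livers 3 and 4 lay inside their range. The difference was 0.57 on the log2 scale (SE 0.58, edgeR adjusted p = 0.5), and its 95% interval ran from a 0.581-fold to a 3.81-fold level, so neither a fall nor a large rise could be told from no change with these livers. The highest FXRKO liver was 5.33 times the lowest, against 2.13 times in BCL6LKOFXRKO livers, which made Cyp7a1 the most variable of the enzymes in both genotypes by coefficient of variation, at 72.4% and 30.1%. Leaving out 1 liver moved the estimate between 0.28 (without FXRKO liver 1) and 0.98 (without FXRKO liver 4) and gave no call. With limma voom and quality weights the log2 difference of Cyp7a1 was 1.08 (SE 0.47, adjusted p = 0.0952), also not called.

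Cyp8b1, the sterol hydroxylase of cholic acid synthesis (NM_010012, chr9:121914356-121916305), was not called either. Its FXRKO livers held 712, 833, 1134 and 831 CPM and its BCL6LKOFXRKO livers 1029, 690, 1013 and 1362 CPM. The groups overlapped, with the lowest liver of all among the BCL6LKOFXRKO samples and the highest there too. The log2 difference was 0.22 (SE 0.20, edgeR adjusted p = 0.423), with an interval from 0.868-fold to 1.57-fold.

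Cyp27a1, the side-chain oxidase that opens the alternative pathway (NM_024264, chr1:74713535-74737897), lay just outside the threshold. FXRKO livers held 538, 537, 490 and 536 CPM, and BCL6LKOFXRKO livers 464, 372, 417 and 453 CPM. All BCL6LKOFXRKO livers were below all FXRKO livers, in an exact two-sided permutation test with p = 0.029, the smallest value that 4 livers against 4 can give. The level in BCL6LKOFXRKO was 81.2% of the FXRKO mean (log2 difference -0.30, SE 0.11), and the adjusted p over all genes was 0.0606 in edgeR. It passed the threshold with DESeq2 (adjusted p = 0.0215), with limma voom (adjusted p = 0.0289) and with scaling to total counts alone (adjusted p = 0.0106), with the direction and nearly the same size in the first 2 of these and a log2 difference of -0.46 in the last. On simulated data 12.1% of DESeq2 calls were false, against 3.89% of edgeR calls and 4.02% of limma voom calls. That simulation changed 200 of 12211 genes, far fewer than were called here, so these shares need not hold for these livers.

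Cyp7b1, the oxysterol hydroxylase that follows CYP27A1 (NM_007825, chr3:18071950-18243338), showed the largest fall of the 10. It was at 287, 351, 292.5 and 138.5 CPM in FXRKO livers 1 to 4. In BCL6LKOFXRKO livers it was at 35, 31.1, 42.1 and 29.9 CPM. The highest BCL6LKOFXRKO liver was thus below the lowest FXRKO liver, FXRKO liver 4, which stood well under the other FXRKO livers. The mean fell from 267 ± 90.6 to 34.5 ± 5.5 CPM (SD, n = 4 each), a 7.74-fold fall in the fit (log2 difference -2.95, SE 0.26, edgeR adjusted p = 1.67e-05). Cyp7b1 is one of the genes expressed more highly in male than in female mouse liver, and all 8 livers here were from males.

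Cyp39a1, an oxysterol hydroxylase that acts on the cholesterol derivative exported by the brain (NM_018887, chr17:43667372-43751431), was the least abundant of the enzymes and fell next most. Its FXRKO livers held 22.8, 23.5, 14.7 and 25.8 CPM. Its BCL6LKOFXRKO livers held 5.04, 5.7, 4.68 and 4.36 CPM, from 47 to 50 counts each, all below the lowest FXRKO liver. The fall was 4.4-fold (log2 difference -2.14, SE 0.19, edgeR adjusted p = 4.05e-06). Cyp7b1 and Cyp39a1 share their reaction, the addition of a ring hydroxyl group to an oxysterol rather than to cholesterol, which is the substrate of CYP7A1.

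Both ring-modifying enzymes were measured, and 1 was called. Hsd3b7, the dehydrogenase and isomerase through which all routes pass (NM_133943, chr7:127800609-127803802), held 703, 680, 671 and 552 CPM in FXRKO livers. It held 519, 416, 352 and 483 CPM in BCL6LKOFXRKO livers, with no overlap, though FXRKO liver 4 and BCL6LKOFXRKO liver 1 lay close together. The level was 67.9% of the FXRKO mean (log2 difference -0.56, SE 0.14, edgeR adjusted p = 0.00976). Its exons overlap those of Gm49388 on the same strand over 1665 bases and of the antisense gene 9430064I24Rik over 970 bases, and since the counting is not stated to use strand, reads of these genes cannot be told apart from those of Hsd3b7. Akr1d1, the reductase that follows it (NM_145364, chr6:37530173-37568815), held 103, 96.6, 162 and 169 CPM in FXRKO livers and 192, 154, 227 and 127 CPM in BCL6LKOFXRKO livers. FXRKO livers 1 and 2, the lowest for Cyp7a1, were also the lowest for Akr1d1, and BCL6LKOFXRKO liver 3 was the highest for both. The log2 difference was 0.40 (SE 0.22, edgeR adjusted p = 0.198), with an interval from 0.943-fold to 1.85-fold.

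Acox2, the peroxisomal oxidase of side-chain shortening (NM_053115, chr14:8225511-8259019), held 285, 296, 220 and 201 CPM in FXRKO livers. In BCL6LKOFXRKO livers it held 202, 200.5, 154 and 157.5 CPM. BCL6LKOFXRKO liver 1 was a little above FXRKO liver 4, so the groups overlapped. The level was 71.3% of the FXRKO mean (log2 difference -0.49, SE 0.15, edgeR adjusted p = 0.0286), and it was the weakest of the 6 calls. The call was lost without FXRKO liver 1 (adjusted p = 0.0769), FXRKO liver 2 (0.0939), BCL6LKOFXRKO liver 3 (0.0751) or BCL6LKOFXRKO liver 4 (0.0615) in the same edgeR test, with log2 differences from -0.43 to -0.40.

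Both conjugating enzymes fell, with no overlap between the groups. Slc27a5, the bile acid coenzyme A ligase (NM_009512, chr7:12988346-12998192), held 1230, 1246, 1292 and 1270.0 CPM in FXRKO livers and 881, 890.2, 906 and 914 CPM in BCL6LKOFXRKO livers. Its coefficient of variation was 2.15% and 1.68%, the smallest of the 10 enzymes in each genotype, so a fall to 71.3% of the FXRKO mean stood far outside the spread of the livers (log2 difference -0.49, SE 0.10, edgeR adjusted p = 0.00376). Baat, the transferase that joins the activated bile acid to its amino acid (NM_007519, chr4:49489418-49506558), held 291, 351.5, 317 and 308 CPM in FXRKO livers. It held 215, 201, 194 and 156 CPM in BCL6LKOFXRKO livers, all below the lowest FXRKO liver. The level was 60.5% of the FXRKO mean (log2 difference -0.73, SE 0.12, edgeR adjusted p = 0.000782), the deepest fall after Cyp7b1 and Cyp39a1.

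**Figure D2:**
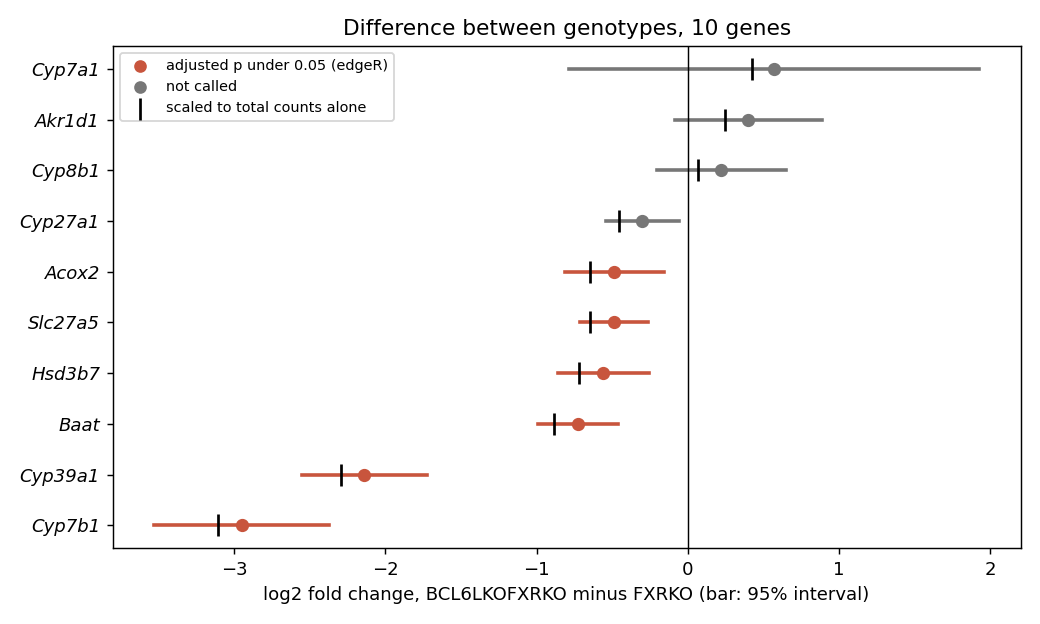
Log2 fold change of each enzyme, BCL6LKOFXRKO minus FXRKO, with its 95% interval from edgeR, called genes in red and the others in grey, and the estimate after scaling to total counts alone as a black tick. Cyp7b1 (-2.95) and Cyp39a1 (-2.14) stand apart from the other 4 called genes (-0.73 to -0.49), and the intervals of Cyp7a1, Akr1d1 and Cyp8b1 include 0.

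Scaling to total counts alone moved all 10 estimates down together. With RLE, another library scaling, and with the 50 most counted genes left out, the median over all genes shifted by only -0.002 and 0.004. Both settings kept 6 enzymes lower. Alb, the albumin gene whose promoter drives Cre, took 38240 to 48540 CPM in FXRKO livers and 127800 to 147000 CPM in BCL6LKOFXRKO livers, and TMM gave factors of 1.05 to 1.06 to the former and 0.901 to 0.982 to the latter. With total counts alone the median over all genes shifted by -0.16, 1404 genes were higher and 2949 lower in place of 1994 and 1665, and 7 of the 10 enzymes were lower, Cyp27a1 being the one added. The share of Alb in these differences was not tested. The exact permutation test on TMM-scaled CPM gave p = 0.029 for each of the 6 enzymes without overlap and p = 0.057 for Acox2.

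Levels of different enzymes were compared per kilobase of transcript (RPKM). In FXRKO livers the order of mean levels ran from Slc27a5 (543) through Cyp8b1 (451), Hsd3b7 (359), Cyp27a1 (273), Baat (163), Cyp7b1 (124), Acox2 (97.9), Cyp7a1 (65.9) and Akr1d1 (49.3) to Cyp39a1 (7.02). Hsd3b7 exceeded Cyp27a1, Cyp27a1 exceeded Baat, Baat exceeded Cyp7b1 and Akr1d1 exceeded Cyp39a1 in all 4 livers, while the other neighbours changed places in at least 1 liver. In BCL6LKOFXRKO livers the order was Cyp8b1 (526), Slc27a5 (387), Hsd3b7 (244), Cyp27a1 (221.5), Baat (98.7), Cyp7a1 (98.1), Acox2 (69.9), Akr1d1 (65.2), Cyp7b1 (16) and Cyp39a1 (1.6). There the pairs Cyp8b1 and Slc27a5, Hsd3b7 and Cyp27a1, Baat and Cyp7a1, and Acox2 and Akr1d1 changed places in 1 of 4 livers each, and the other neighbours kept their order in all 4. Cyp7b1 thus went from place 6 to place 9, below Akr1d1 in all 4 livers. Cyp7a1 went from place 8 to place 6, above Acox2 in all 4 BCL6LKOFXRKO livers and in 2 FXRKO livers.

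Ratios of a pair of enzymes within a liver do not depend on library scaling, and they are given as descriptions with no test, computed per kilobase after adding 0.5 counts. Cyp7a1 over Cyp7b1, the hydroxylases of the classical and alternative pathways, was 0.162, 0.176, 0.729 and 1.79 in FXRKO livers 1 to 4. It was 6.43, 6.33, 6.87 and 4.53 in BCL6LKOFXRKO livers. Every BCL6LKOFXRKO liver held more Cyp7a1 than Cyp7b1 transcript, as did 1 of 4 FXRKO livers, and the geometric means differed 13.6-fold, a log2 difference of 3.76 that ran from 3.29 to 4.44 with 1 liver left out. Cyp7b1 alone fell by 2.95 on that scale in the fit, and Cyp7a1 was not called. Cyp7a1 over Cyp27a1 was 0.0772, 0.102, 0.389 and 0.412 in FXRKO livers and 0.432, 0.473, 0.618 and 0.267 in BCL6LKOFXRKO livers, with the last of these inside the FXRKO range. Cyp8b1 over Cyp7a1 was 17, 15, 5.89 and 3.72 in FXRKO livers and 5.07, 3.88, 3.88 and 11.1 in BCL6LKOFXRKO livers, which overlapped widely. Slc27a5 over Baat stayed between 2.97 and 3.54 in FXRKO livers and between 3.43 and 4.9 in BCL6LKOFXRKO livers, with geometric means that differed 1.18-fold.

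**Figure D3:**
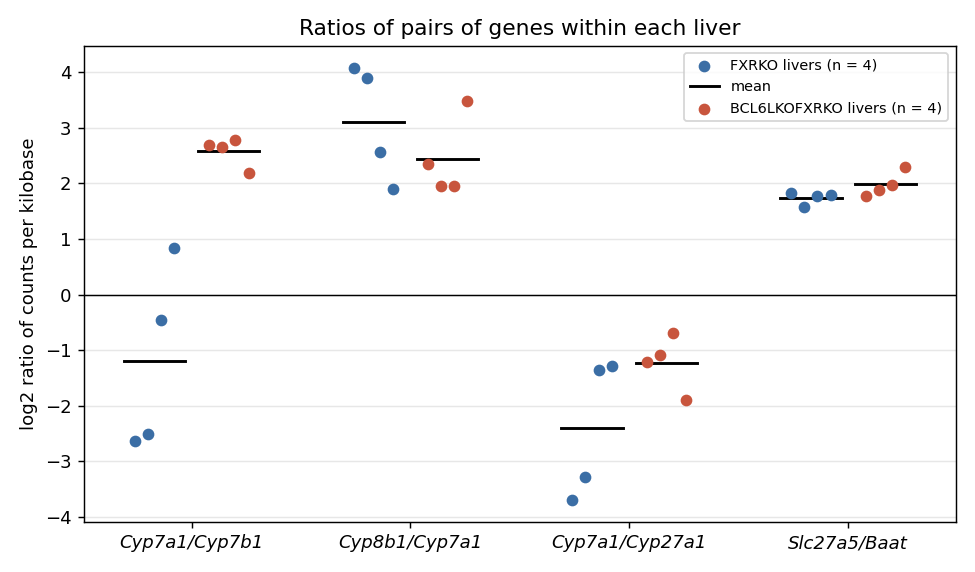
Log2 ratio of counts per kilobase for 4 pairs of enzymes in each liver, FXRKO in blue and BCL6LKOFXRKO in red (4 livers each), with group means as black lines. The ratio of Cyp7a1 to Cyp7b1 separates the groups, with group means of -1.19 and 2.58, while the groups overlap in the other 3 ratios.

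FXRKO livers that were low in Cyp7a1 and Akr1d1 also differed from the other FXRKO livers in clock genes, which cycle over the day as Cyp7a1 itself does. Arntl, the activator of the clock, was at 4.47, 5.75, 0.967 and 1.32 CPM in FXRKO livers 1 to 4 and at 14.9, 4.98, 1.46 and 1.09 CPM in BCL6LKOFXRKO livers 1 to 4. Per2, a clock repressor, was at 15.7, 15.4, 36.8 and 44.8 CPM and at 3.73, 8.62, 15.1 and 10.4 CPM in the same order. Tef, a clock output factor, was at 148.5, 157, 224 and 253 CPM and at 70.6, 106, 169 and 133 CPM. FXRKO livers 1 and 2, low in Cyp7a1, were high in Arntl and low in Per2 and Tef, whereas BCL6LKOFXRKO livers 1 and 2, also the highest of their group in Arntl, were at 434 and 380 CPM of Cyp7a1, so the lower Cyp7a1 levels went with the higher Arntl levels among FXRKO livers and not among BCL6LKOFXRKO livers. Of 12 clock genes tested, 1 was called between genotypes, Per2 (log2 difference -1.57, SE 0.50, edgeR adjusted p = 0.0468), and its call was lost without any 1 of 5 livers. Across all tested genes, 13.5% were called lower and 16.2% higher. Nr1d1 (adjusted p = 0.38), Arntl (0.535), Tef (0.0659) and Cry1 (0.105) were not called by edgeR, though Tef was called lower by DESeq2 (adjusted p = 0.0201) and limma voom (0.0208). DESeq2 gave 12.1% false calls on simulated data, against 3.89% with edgeR and 4.02% with limma voom. The simulated data held far fewer changed genes than were called here, so these shares need not hold for these livers. With 4 livers a genotype no correlation was computed, and the part of collection time in the levels of Cyp7a1 was not tested.

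**Figure D4:**
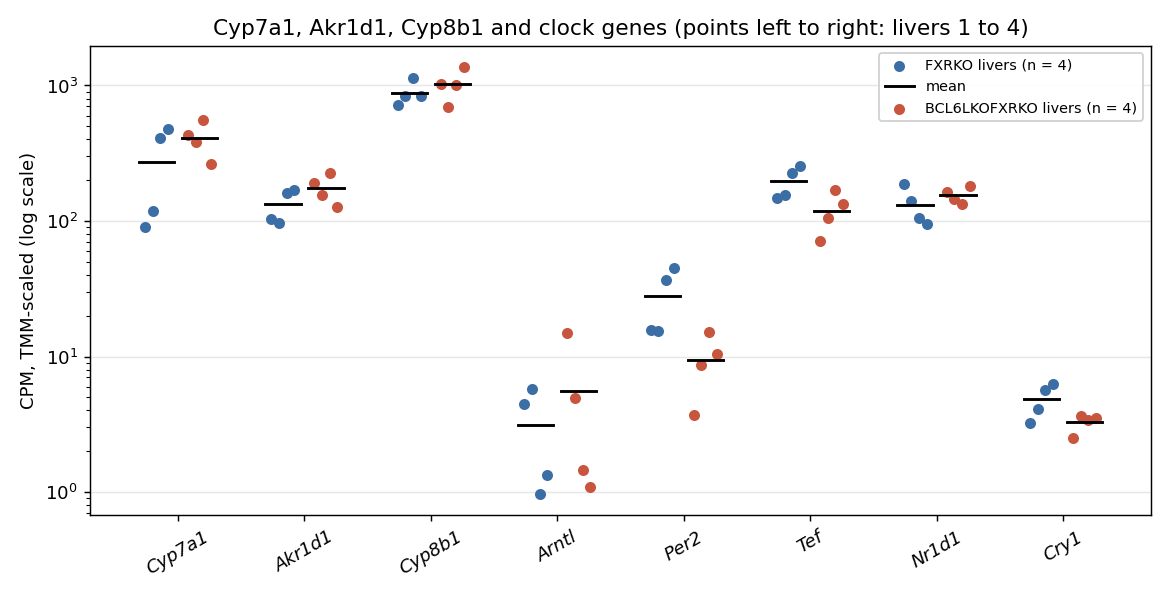
Level of Cyp7a1, Akr1d1, Cyp8b1 and 5 clock genes in each liver as TMM-scaled CPM on a log axis, FXRKO in blue and BCL6LKOFXRKO in red, with replicates 1 to 4 from left to right and group means as black lines. FXRKO livers 1 and 2 are the lower pair for Cyp7a1, Akr1d1, Per2 and Tef and the upper pair for Arntl and Nr1d1.

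Enzymes and carriers of the same route that are not among the 10 were mostly lower too. Of 12 listed genes 10 were tested, and 7 were lower and 1 higher, beside 13.5% of all tested genes called lower and 16.2% called higher. The median of their log2 differences was -0.83. Scp2, the peroxisomal thiolase of side-chain cleavage, held 1786 to 2514 CPM in FXRKO livers and 686 to 834 CPM in BCL6LKOFXRKO livers, a 2.74-fold fall (log2 difference -1.45, SE 0.14, edgeR adjusted p = 6.07e-06). Slc27a2, a second coenzyme A ligase that also activates long-chain fatty acids, went from 1468 to 1622 CPM down to 557 to 669 CPM (log2 difference -1.34, SE 0.11, edgeR adjusted p = 2.9e-06), a deeper fall than that of Slc27a5. Amacr, the racemase that prepares the side chain for oxidation, fell to 53.5% of the FXRKO mean (edgeR adjusted p = 4.36e-05). Of 5 peroxisomal enzymes or carriers in this list, Amacr, Scp2, Hsd17b4 and Abcd3 were called lower, as was Acox2, and Acot8, a thioesterase, was not called (log2 difference -0.16, SE 0.18, edgeR adjusted p = 0.517), and this group was formed after the values were seen. Hsd17b4 was close to the threshold (edgeR adjusted p = 0.048). Several of them also act on long or branched fatty acids. Cyp2c70, the hydroxylase of muricholic acid synthesis in mice, was not called (log2 difference 0.31, SE 0.21, edgeR adjusted p = 0.282).

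Star, which carries cholesterol into mitochondria, was the only one of the list called higher. It was at 1.98, 2.75, 2.58 and 2.08 CPM in FXRKO livers and at 11.6, 2.79, 26.2 and 21.1 CPM in BCL6LKOFXRKO livers. BCL6LKOFXRKO liver 2 was almost level with the highest FXRKO liver, and the difference of 2.73 on the log2 scale (SE 0.62, edgeR adjusted p = 0.0121) was 3.06 without it.

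**Figure D5:**
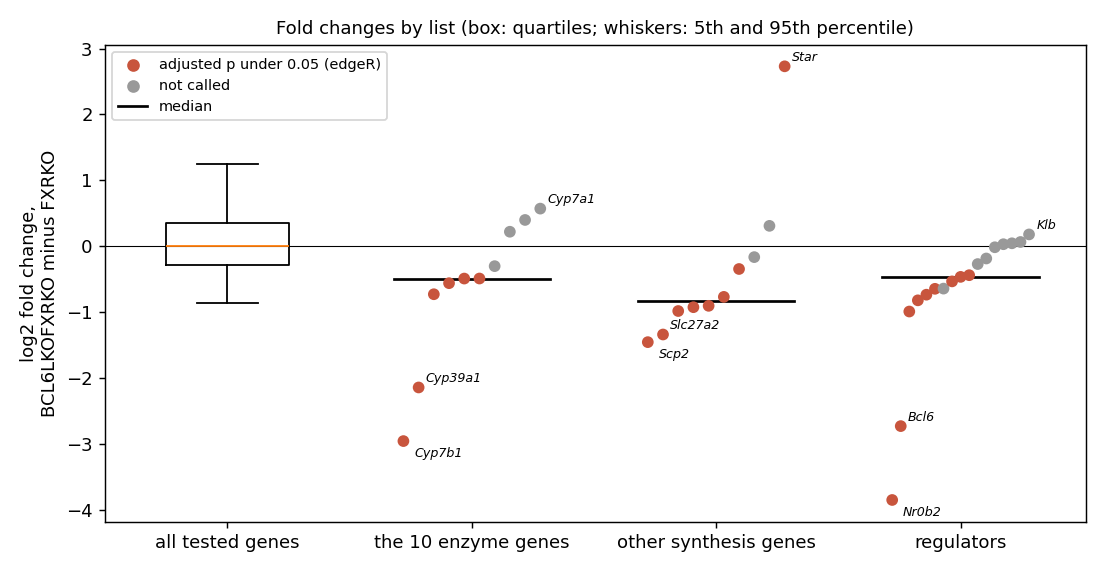
Log2 fold changes, BCL6LKOFXRKO minus FXRKO, of all 12340 tested genes as a box (quartiles, whiskers at the 5th and 95th percentile) and of the 10 enzymes, 10 other synthesis genes and 17 regulators as points, with genes called in red and list medians as black lines. The list medians of -0.49, -0.83 and -0.46 lie below the median of all tested genes, and Nr0b2, Cyp7b1, Bcl6 and Cyp39a1 are the lowest points.

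Regulators of the enzymes were lower or not called. Of 18 listed genes 17 were tested (Fgf15, an intestinal hormone, had at most 3 counts in every liver), and 9 were lower, 0 higher and 8 not called, with a median log2 fold change of -0.46. Those 9 include Bcl6, whose fall was set by the design, and Nr1h4, whose targeted allele both groups carry. Across all tested genes, 13.5% were called lower and 16.2% higher. Nr0b2, whose protein SHP restrains Cyp7a1 and Cyp8b1, was at 13.9, 16.6, 11 and 7.95 CPM in FXRKO livers and at 1.21, 1.33, 0.487 and 0.454 CPM in BCL6LKOFXRKO livers. The BCL6LKOFXRKO levels of Nr0b2 rest on 5 to 12 counts each, close to the lower end of detection. Its 14.4-fold fall (log2 difference -3.85, SE 0.34, edgeR adjusted p = 4.14e-06) had a 95% interval from 0.0416 to 0.116 of the FXRKO level. It stood beside levels of Cyp7a1 and Cyp8b1 that were not called. By qPCR and Western blot, the study reports higher CYP7A1 and CYP8B1 in BCL6LKOFXRKO than in FXRKO mice. The 95% interval of Cyp7a1 here, 0.581-fold to 3.81-fold, holds both no change and a rise. Ppara, a fatty acid receptor that also acts on bile acid genes and peroxisomal oxidation, fell to 50.4% of the FXRKO mean (log2 difference -0.99, SE 0.17, edgeR adjusted p = 0.00104). Klb, the co-receptor of FGF15, and Mafg, a repressor of Cyp8b1, were not called (edgeR adjusted p = 0.408 and 0.821).

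The targeted genes checked the labels. Bcl6 was at 56.3, 65.2, 21.2 and 55.6 CPM in FXRKO livers and at 11.9, 4.61, 5.55 and 7.72 CPM in BCL6LKOFXRKO livers (log2 difference -2.72, SE 0.40, edgeR adjusted p = 0.00123), so FXRKO liver 3 lay well under the others of its group and still above every BCL6LKOFXRKO liver. Without FXRKO liver 3 each of the 6 enzymes kept its call. Nr1h4 reads were present in all 8 livers, at 56.7 to 62.6 and 39.4 to 48.1 CPM, and since both groups carry the same Fxr allele this difference is no check of it.

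The livers were rich in hepatocyte transcripts, and some markers of other cell types were called higher. Of 8 hepatocyte markers 7 were in the table, and Alb was higher, Ttr and Serpina1c were lower and 4 were not called. The summed level of 6 cholangiocyte markers was 41.7 to 66.9 CPM in FXRKO livers and 75.3 to 135 CPM in BCL6LKOFXRKO livers, with Krt19 and Spp1 called higher of 4 tested. Spp1 made up most of this sum, at 36.7 to 53.7 and 66.2 to 123 CPM, and Sox9, in the same list, was not called (log2 difference -0.81, SE 0.32, edgeR adjusted p = 0.0773). Stellate cell and fibroblast markers summed to 77 to 122 CPM and 142 to 253 CPM, with 3 of 6 called higher. Macrophage markers summed to 317 to 443 and 380 to 683 CPM and endothelial markers to 115 to 158 and 150 to 210 CPM, with overlapping ranges and 1 called higher in each list (Cd68 of 6 and Stab2 of 5), beside 16.2% of all tested genes. Lymphocyte markers, none of them tested, summed to 2.46 to 4.84 CPM in FXRKO livers and 4.43 to 8.81 CPM in BCL6LKOFXRKO livers. In bulk liver, fewer hepatocytes and less RNA of these enzymes in each hepatocyte cannot be told apart, and the part of cell composition in the falls of the 6 enzymes was not tested.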

How the data were processed

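Livers of male mice were sequenced by the authors from poly(A) RNA (TruSeq Stranded mRNA libraries, single-end reads), and reads with 1 alignment to mm10 were placed with STAR 2.5.2 and counted over exons with HOMER 4.10, which the study also used for RPKM. The deposited values are raw counts per gene, condensed to 1 transcript a gene, with no normalization. Groups come from the genotype labels. Counts were fitted for all 8 livers in edgeR 4.0.16 (R 4.3.3) with filterByExpr, TMM, a robust quasi-likelihood fit and Benjamini-Hochberg adjustment over 12340 genes; DESeq2 1.42.0, which the study used, and limma 3.58.1 (voom with quality weights) were alternatives, with RLE, total counts alone, the 50 most counted genes left out, other low-count filters, 5 counts added to ratios and each liver left out. RPKM here divides TMM-scaled CPM by the file's transcript length. The smallest exact two-sided permutation p with 70 orderings is 0.029. On simulated data with 200 changed genes of 12211 in this comparison, each changed by at least 1 on the log2 scale, edgeR recovered 86.5%. Smaller changes, such as those of Acox2, Slc27a5, Hsd3b7 and Baat, were not simulated, so their recovery is not known. Of the calls on the simulated data, 3.89% were false with edgeR, 12.1% with DESeq2 and 4.02% with limma voom. Far more genes were called in the livers (1994 higher and 1665 lower) than were changed there, so these shares need not hold for the livers. Detection ends near 3 counts, 0.253 to 0.395 CPM per library, and depth covers counting error only.

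The members and gene lists were chosen with earlier results of these data known. All 10 enzymes, Nr1h4, Bcl6 and Nr0b2 are named, and from each other list (synthesis, regulators, clock, pericentral, periportal) the 3 genes of smallest adjusted p in each direction; Hsd17b4, Abcd3, Acot8 and marker genes were named after their values were seen. A gene that the rule names is not reported here. Sequences came from RefSeq tables.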

Additional observations from a re-analysis of the deposited data

Results flagged for a closer look

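Among 76 sets of 4 livers examined (named genes and ratios, each within a genotype), 2 had 1 liver far from the other 3, where chance alone would give about 1 in 20, or 3.8. Cyp27a1 in FXRKO liver 3 was at 490 CPM against 536 to 538 CPM in the other FXRKO livers, a gap of 0.956 of the whole range. Without this liver the log2 difference of Cyp27a1 was -0.34 (edgeR adjusted p = 0.0752), in place of -0.30. FXRKO liver 3 was also the lowest of its group in Bcl6 and in Cyp39a1. Slc1a2, a pericentral glutamate transporter, was at 282 CPM in FXRKO liver 4 against 194 to 209 CPM in the other FXRKO livers, a gap of 0.834 of the range, and at 473 to 928 CPM in BCL6LKOFXRKO livers. FXRKO liver 4 was also the lowest of its group in Cyp7b1, Hsd3b7 and Acox2 and the highest in Cyp7a1.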

How the results depend on the processing

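No paired analysis was possible because the labels give each liver a library number of its own and no replicate number that the genotypes share, and the replicate numbers used here follow accession order. Over 15 alternatives, 142 of 150 estimates for the 10 enzymes kept direction and side of the threshold and 0 reversed. Cyp7b1, Cyp39a1, Baat, Slc27a5 and Hsd3b7 were called in every one, and Cyp7a1 (adjusted p from 0.0952 to 0.713), Cyp8b1 (0.13 to 0.856) and Akr1d1 (0.0501 to 0.437) in none of edgeR, DESeq2 or limma. Cyp27a1 was called lower with total counts alone (-0.4566), DESeq2 (-0.3017) and limma voom (-0.2998), and with 1 liver left out ranged from -0.3429 to -0.2494, called only without BCL6LKOFXRKO liver 4 (-0.3294). Acox2 lost its call without any 1 of 4 livers, ranging from -0.5818 to -0.4017 with 1 liver left out. Total counts alone gave 2949 genes lower, since every estimate shifted down. The synthesis list had 2 genes higher with no low-count filter (12 tested), and 1 to 2 with 1 liver left out; 2 without FXRKO liver 3 or BCL6LKOFXRKO liver 2. Its 7 genes lower became 6 in 7 of 8 fits with 1 liver left out, with the 50 most counted genes left out and with at least 10 counts in every liver. The 9 regulators lower became 6 to 8 with 1 liver left out, 6 of them without FXRKO liver 4 or BCL6LKOFXRKO liver 1. The same alternatives for the other named genes were chosen after seeing the data; in 358 estimates, 11 lost a call (Per2 and Hsd17b13), 12 gained one (Tef, Cry1, Rgn and Cps1) and 8 reversed, all of genes not called: with total counts alone Mafg (-0.08717) and Axin2 (-0.1191), and with 1 liver left out Mafg (-0.05714 to 0.219), Arntl (-0.3451 to 1.301) and Axin2 (-0.1106 to 0.1467). Cyp39a1, at 47 to 50 counts a BCL6LKOFXRKO liver, is the enzyme most limited by depth.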

Other observations

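Liver zonation lists bear on these enzymes because Cyp7a1 and Cyp27a1 are highest near the central vein. Of 9 pericentral genes tested 1 was higher, Slc1a2 (194 to 282 CPM in FXRKO livers and 473 to 928 CPM in BCL6LKOFXRKO livers, log2 difference 1.68, SE 0.19, edgeR adjusted p = 4.37e-05), and 1 was lower, Cyp2e1, a cytochrome P450 of ethanol metabolism (9137 to 13130 CPM and 2114 to 3515 CPM, log2 difference -1.92, SE 0.17, edgeR adjusted p = 4.45e-06). These moved in opposite directions, and Axin2, Rgn and Tbx3 were not called (edgeR adjusted p = 0.932, 0.174 and 0.179). Of 8 periportal genes 2 were lower, Pck1, the rate-limiting enzyme of gluconeogenesis (log2 difference -1.61, SE 0.29, edgeR adjusted p = 0.00215), and Hsd17b13, a lipid droplet protein (log2 difference -0.34, SE 0.10, edgeR adjusted p = 0.0285), whose call was lost without any 1 of 5 livers. Cps1, of the urea cycle, was not called by edgeR (adjusted p = 0.075) and was called lower by DESeq2 (adjusted p = 0.0486). On simulated data with far fewer changed genes than were called here, DESeq2 gave more false calls than edgeR. The counts called in both lists stood beside 16.2% of all tested genes called higher and 13.5% called lower, and are not read as a result about zonation. The medians were -0.31 for the pericentral and -0.37 for the periportal list, beside -0.49 for the 10 enzymes.

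The sum of RPKM over the 10 enzymes was 2024 to 2313 in FXRKO livers and 1508 to 1863 in BCL6LKOFXRKO livers. Cyp7a1 made up 1.06%, 1.33%, 4.27% and 5.62% of that sum in FXRKO livers 1 to 4 and 5.73%, 6.06%, 7.78% and 3.37% in BCL6LKOFXRKO livers 1 to 4. Cyp8b1 made up 18.1% to 25.2% and 23.5% to 37.5%, the largest share in BCL6LKOFXRKO liver 4, where Cyp7a1 was the lowest of its group.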
